A study of Mus musculus with 8 samples.

Results

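Matrix metalloproteinases (MMPs) are zinc-dependent proteases that cut proteins of the extracellular matrix, and tissue inhibitors of metalloproteinases (TIMPs) are small secreted proteins that bind and block them. Most MMPs are made as inactive precursors and are activated outside the cell or at its surface, so an mRNA level is not a level of activity. In muscle they are known for remodeling the matrix around myofibers during growth and repair, and much of their mRNA is made by cells other than myofibers. The 10 genes described here are the MMPs *Mmp2*, *Mmp3*, *Mmp9*, *Mmp13*, *Mmp14* and *Mmp19* and the inhibitors *Timp1*, *Timp2*, *Timp3* and *Timp4*, out of 41709 genes in the deposited values. They were found by symbol. *Mmp13* was chosen by its measured values, because it was higher with *Uba1* siRNAs, so its values are given as a description and without a test. The other 9 were taken as members of the same families.

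The values are the RNA abundances of 8 tibialis anterior (TA) muscles from 4 male C57BL/6J mice that were 3 months old. A pool of siRNAs against *Uba1*, which encodes the main E1 enzyme that starts ubiquitin conjugation, was electroporated into the TA muscle of one leg (siUBA1 in the labels, n = 4). The other leg of the same mouse received control non-targeting (NT) siRNAs in the same way (siNT, n = 4), and muscles were taken 7 days later. Replicates 1 to 4 are the same mice in both groups. By their labels, the NT siRNAs were all in R muscles and the *Uba1* siRNAs all in L muscles. An effect of leg and an effect of siRNA cannot be told apart. Both legs were first injected with hyaluronidase, an enzyme that loosens the matrix, and both were electroporated. No untreated muscle was analyzed here. The treatment tags of *Uba1* replicates 2, 3 and 4 name UBA2, UBA3 and UBA4, whereas the titles and descriptions name UBA1 for all of them.

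Abundances are TPM, a share of all transcripts that is corrected for transcript length, so that levels can be set side by side between genes. TPM keep no read total, and the depth is therefore unknown. *Uba1* mRNA was between 59.0 and 63.6 TPM with NT siRNAs and between 6.77 and 23.1 TPM with *Uba1* siRNAs, or 0.115 to 0.391 of the NT leg of the same mouse. Among the *Uba1* muscles it was lowest in replicate 2 and highest in replicate 4. Summed over 8 myofiber markers, which include creatine kinase and the fast myosins, the muscles held 105219 to 112509 TPM with NT siRNAs and 82108 to 115843 TPM with *Uba1* siRNAs, so the label of skeletal muscle fits the values. The lowest of these sums were in *Uba1* replicates 2 and 4. The same 2 muscles had the highest share of TPM from mitochondrial genome transcripts (50.3% and 46.5%, against 39.9% to 45.7% in the other 6). In whole muscle, fewer cells of a type and less RNA per cell cannot be told apart.

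Transcription of some MMP genes is known to depend on short promoter elements, among them AP-1 sites, bound by Fos and Jun proteins, and RUNX sites, bound by factors such as RUNX2. A table of RefSeq promoters (GRCm38.p6) holds 7 of the 10 members, and *Mmp2*, *Mmp9* and *Mmp19* are not among them. In windows of 300 bases, from 250 before to 50 after each start, the AP-1 letters TGANTCA were searched on both strands, TGTGGT for RUNX on both strands and TATAAA on the strand of the gene. The members with an AP-1 match were *Mmp13* and *Mmp3*, which lie in the same MMP gene cluster of chromosome 9 and whose mRNAs differed in their values. Their last 130 bases before the GRCm39 gene start are shown for that reason, at chr9:7272384-7272513 for *Mmp13* and chr9:7445692-7445821 for *Mmp3*, both on the plus strand. Capitals mark the matches, which are RUNX on the opposite strand, AP-1 and TATAAA in *Mmp13*, and AP-1 and TATAAA in *Mmp3*.
Mmp13: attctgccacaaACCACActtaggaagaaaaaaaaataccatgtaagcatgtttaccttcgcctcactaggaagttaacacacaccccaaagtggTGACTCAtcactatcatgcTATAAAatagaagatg
Mmp3: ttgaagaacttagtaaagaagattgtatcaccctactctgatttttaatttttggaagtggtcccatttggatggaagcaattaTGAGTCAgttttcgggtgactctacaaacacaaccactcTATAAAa
Counted from the gene start, the AP-1 match begins at -35 in *Mmp13* and at -46 in *Mmp3*. *Mmp14* held a RUNX match, and the windows of *Timp1*, *Timp2*, *Timp3* and *Timp4* held none of the 3 motifs. Among all 27025 promoters of the table, 7.93% held the AP-1 letters, 16.9% the RUNX letters and 8.88% TATAAA. A match is a description of letters, and binding was not measured.

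*Mmp13* encodes collagenase 3, which cuts fibrillar collagen and is best known from bone and cartilage. It lies on chromosome 9 from 7272514 to 7283331 (plus strand, GRCm39). Its mRNA was at 8.52, 1.40, 5.85 and 4.12 TPM in NT replicates 1 to 4, and at 9.13, 59.9, 19.5 and 58.1 TPM in *Uba1* replicates 1 to 4. The groups did not overlap, but *Uba1* replicate 1 lay just above NT replicate 1, and *Uba1* replicates 2 and 4 lay far above the rest. The means were 4.97 ± 2.99 and 36.7 ± 26.1 TPM (SD, n = 4 muscles each), a ratio of 7.37. Within mice the ratio of the *Uba1* leg to the NT leg was 1.07, 42.8, 3.34 and 14.1 for replicates 1 to 4. The ratio thus ranged from nearly equal legs in replicate 1 to the largest difference in replicate 2. On the scale of log2(TPM + 1), used for every log2FC here, *Mmp13* had a log2FC of 2.47, the highest of the 11530 genes tested. A gene was tested if 4 or more of the 8 muscles had at least 1 TPM. With each muscle left out in turn and under other scalings and filters it was between 2.08 and 2.98.

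**Figure D1:**
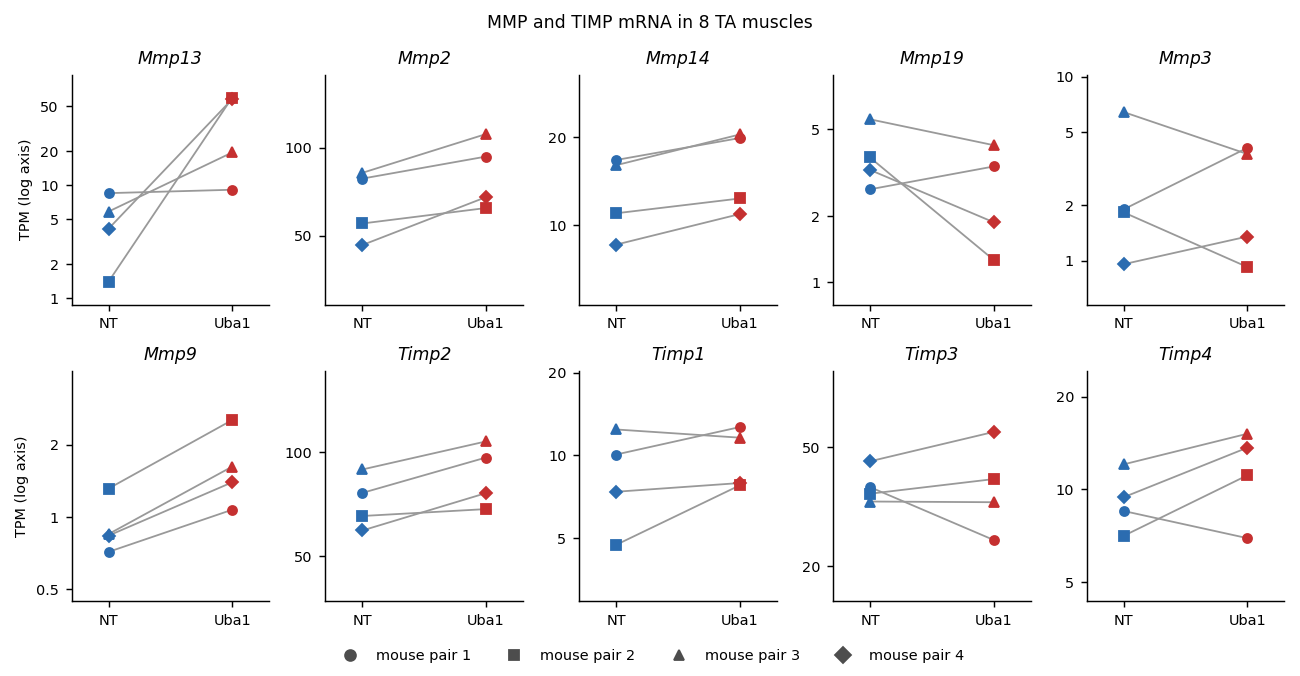
TPM of each of the 10 members on log axes in the 4 muscles with NT siRNAs (blue) and the 4 with *Uba1* siRNAs (red), with a line joining the legs of each mouse. *Mmp13* went from 1.40 to 59.9 TPM in mouse pair 2 and from 8.52 to 9.13 TPM in mouse pair 1, while the lines of *Mmp2*, *Mmp9*, *Mmp14* and *Timp2* slope upward in all 4 mice.

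Across genes, limma on log2(TPM + 1) with Benjamini-Hochberg adjustment found 3 of 11530 genes past an adjusted p of 0.05 (0.0260%). All 10 members were among the genes tested, and of the 9 that were not chosen by their values 0 passed. The targeted gene *Uba1*, with a log2FC of -1.98, itself did not pass (limma, adjusted p = 0.0527). It passed when the mouse was a block (limma, adjusted p = 0.0278). A count of 0 is thus no evidence that the members did not change. With the mouse as a block in limma, 0 of the 9 passed, against 0.494% of all genes. At an unadjusted P under 0.05, 1 of the 9 was higher, *Mmp9*, against 16.0% of all genes, and 0 were lower, against 1.98%. *Mmp9* reached the filter through the *Uba1* muscles, in which it was higher, so nothing is read from this count. With the mouse as a block, 3 of the other 8 were higher at that level, *Mmp2*, *Mmp14* and *Timp2*, against 22.4% of all genes, and so was *Mmp9*. In that fit the adjusted p was 0.0890 for *Mmp2*, 0.0985 for *Mmp14* and 0.117 for *Timp2* (limma). It was 0.212 or more for *Mmp3*, *Mmp19*, *Timp1*, *Timp3* and *Timp4*. The intervals and adjusted p given gene by gene below are from the fit without the block. Groups without overlap were seen for 0 of the 9, against 10.6% of genes in the higher and 1.01% in the lower direction.

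Without *Mmp9*, which was left out here after its values were seen, the median log2FC of the other 8 genes was 0.24, with 5 of them above 0. The median of all genes tested was 0.11, with 81.8% above 0, and median-ratio scaling of the TPM moved it to 0.0016, with 50.7% above 0. On that scaling the 8 genes had a median of 0.13 and 5 were again above 0. The *Uba1* leg was higher in all 4 mice for 3 of these 8 genes (*Mmp2*, *Mmp14* and *Timp2*), against 32.2% of all genes, and for *Mmp9*, whose direction the filter partly set.

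**Figure D2:**
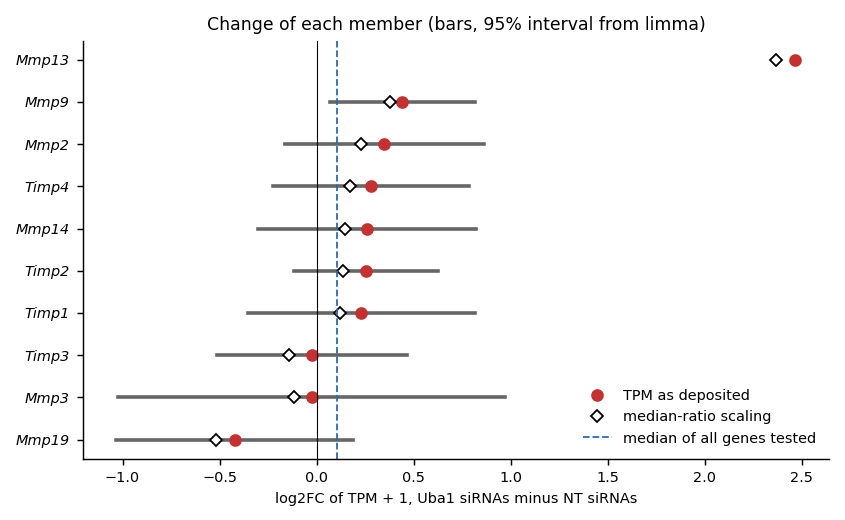
log2FC of log2(TPM + 1), *Uba1* minus NT siRNAs, for each member, from the TPM as deposited (red points) and after median-ratio scaling (open diamonds), with 95% intervals from limma as bars for the 9 tested members and a dashed line at the median of all genes tested (0.11). *Mmp13* lies at 2.47 and is drawn without an interval, while the red points of the other members lie between -0.42 and 0.44.

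The gelatinases *Mmp2* and *Mmp9* cut denatured collagen and basement membrane collagen. *Mmp2* lies on chromosome 8 from 93553902 to 93580049 (plus strand) and was the most abundant MMP. In NT replicates 1 to 4 *Mmp2* was at 78.5, 55.1, 82.2 and 46.5 TPM, and in *Uba1* replicates 1 to 4 at 93.4, 62.2, 112 and 67.8 TPM. Replicates 1 and 3 were the highest in both groups, and the groups overlapped. The means were 65.6 ± 17.5 and 83.8 ± 23.0 TPM (SD, n = 4 each), and the ratio of the legs was 1.19, 1.13, 1.36 and 1.46. The log2FC was 0.35 (95% interval -0.17 to 0.86, limma, adjusted p = 0.414). A difference of the legs was thus present in every mouse, and the difference of the means was of the size of the SD.

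*Mmp9*, which neutrophils and macrophages carry among other cells, lies on chromosome 2 from 164780439 to 164797771 (plus strand) and had the lowest mean TPM of the 10 in both groups. Its mRNA was at 0.717, 1.31, 0.850 and 0.837 TPM with NT siRNAs and at 1.07, 2.53, 1.62 and 1.39 TPM with *Uba1* siRNAs. It passed the filter on low values with 1 NT muscle and 4 *Uba1* muscles at 1 TPM or more, and so entered the test through the group with the higher values. NT replicate 2 lay above *Uba1* replicate 1, so the groups overlapped, while the legs of each mouse differed in the same direction with ratios of 1.50, 1.93, 1.91 and 1.67. The means were 0.929 ± 0.263 and 1.65 ± 0.626 TPM (SD, n = 4 each). The log2FC was 0.44. With no filter on low values, the unadjusted P was 0.0310 and the adjusted p 0.343 (limma), so *Mmp9* did not pass. Summed over 8 neutrophil markers the range was 16.6 to 54.1 TPM with NT and 28.6 to 65.2 TPM with *Uba1* siRNAs, and the sum was higher in the *Uba1* leg of 3 of 4 mice. Of those markers, *Camp* was listed at 0 in every muscle, and the part of neutrophils in the *Mmp9* values was not tested.

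*Mmp14* encodes MT1-MMP, a membrane-bound protease that cuts collagen and activates the MMP2 precursor at the cell surface with TIMP2 as a bridge. It lies on chromosome 14 from 54668878 to 54682821 (plus strand). The *Mmp14* mRNA was at 16.7, 11.0, 16.0 and 8.60 TPM with NT siRNAs and at 19.8, 12.4, 20.4 and 10.9 TPM with *Uba1* siRNAs. Replicates 1 and 3 were again the highest in both groups, and the groups overlapped. The means were 13.1 ± 3.93 and 15.9 ± 4.94 TPM (SD, n = 4 each), with leg ratios of 1.12 to 1.27. The log2FC was 0.26 (95% interval -0.30 to 0.82, limma, adjusted p = 0.576). The TPM of *Mmp14* per TPM of *Mmp2* was 0.185 to 0.213 with NT and 0.161 to 0.212 with *Uba1* siRNAs. These ranges overlapped, and the ratio was lower in the *Uba1* leg of all 4 mice. The legs barely differed in replicate 1 (0.2127 with NT, 0.2124 with *Uba1* siRNAs) and replicate 2 (0.1997 and 0.1985).

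*Mmp3*, stromelysin 1, has many matrix substrates and can activate other MMP precursors. It lies on chromosome 9 from 7445822 to 7455975 (plus strand), 173 kb downstream of the start of *Mmp13*. With NT siRNAs *Mmp3* was at 1.90, 1.83, 6.42 and 0.956 TPM, and with *Uba1* siRNAs at 4.10, 0.923, 3.80 and 1.35 TPM. NT replicate 3 was the highest muscle, and the *Uba1* leg was higher in 2 of 4 mice. The log2FC was -0.026 (95% interval -1.02 to 0.97, limma, adjusted p = 0.978), and its sign depended on which muscles were included. This interval was the widest of the 9 tested members, so the change of *Mmp3* is the least precisely known among them.

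*Mmp19* encodes a secreted MMP with basement membrane substrates, on chromosome 10 from 128626773 to 128636695 (plus strand). The *Mmp19* mRNA was at 2.66, 3.71, 5.54 and 3.26 TPM with NT siRNAs and at 3.38, 1.27, 4.22 and 1.88 TPM with *Uba1* siRNAs. The groups overlapped, and the *Uba1* leg was lower in 3 of 4 mice, most in replicate 2 (ratio 0.341). The log2FC was -0.42 (95% interval -1.03 to 0.19, limma, adjusted p = 0.406). On the opposite strand it overlaps *Tmem198b*, which was at 2.75 to 4.31 TPM with NT and 2.70 to 5.24 TPM with *Uba1* siRNAs. The sources used here do not state that reads were counted by strand, so reads of these genes may not be told apart.

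All 4 inhibitors had higher mean TPM than *Mmp3*, *Mmp9* and *Mmp19* in both groups. *Timp2*, on chromosome 11 from 118191887 to 118246566 (minus strand), was at 76.3, 65.4, 89.2 and 59.4 TPM with NT siRNAs and at 96.6, 68.5, 108 and 76.2 TPM with *Uba1* siRNAs. It had the highest mean of the 10 in both groups, and its 8 muscles stood in the same order as for *Mmp2*. The means were 72.5 ± 13.1 and 87.2 ± 18.0 TPM (SD, n = 4 each), with leg ratios of 1.05 to 1.28. The log2FC was 0.26 (95% interval -0.12 to 0.63, limma, adjusted p = 0.406), and the groups overlapped.

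*Timp1* encodes an inducible inhibitor of most secreted MMPs, on chromosome X from 20736316 to 20740976 (plus strand). Its mRNA was at 10.1, 4.73, 12.4 and 7.37 TPM with NT siRNAs and at 12.7, 7.78, 11.6 and 7.93 TPM with *Uba1* siRNAs. It was higher in the *Uba1* leg of 3 of 4 mice, and the groups overlapped. The log2FC was 0.23 (95% interval -0.35 to 0.81, limma, adjusted p = 0.632). Per TPM of *Timp1* there were 0.296 to 0.846 TPM of *Mmp13* with NT siRNAs and 0.720, 7.71, 1.69 and 7.32 TPM in *Uba1* replicates 1 to 4.

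*Timp3*, whose protein stays bound to the matrix, lies on chromosome 10 from 86136236 to 86185371 (plus strand). Its mRNA was at 36.7, 34.9, 32.9 and 44.8 TPM with NT siRNAs and at 24.5, 39.1, 32.7 and 56.2 TPM with *Uba1* siRNAs. It was higher in 2 of 4 mice, and *Uba1* muscles held both the lowest and the highest value. The log2FC was -0.024 (95% interval -0.51 to 0.46, limma, adjusted p = 0.955). *Timp4*, on chromosome 6 from 115187773 to 115229336 (minus strand), was at 8.51, 7.07, 12.1 and 9.43 TPM with NT siRNAs and at 6.94, 11.1, 15.2 and 13.7 TPM with *Uba1* siRNAs. Its log2FC was 0.28 (95% interval -0.22 to 0.79, limma, adjusted p = 0.496), with 3 of 4 mice higher and replicate 1 lower. *Timp1*, *Timp3* and *Timp4* overlap the synapsin genes *Syn1*, *Syn3* and *Syn2* on the opposite strand. *Timp2* overlaps *Cep295nl* on its own strand, which was at 0.550 TPM or less. *Syn1* and *Syn3* were at 0.377 TPM or less in every muscle and *Syn2* at 1.04 TPM or less.

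By mean TPM with NT siRNAs the order was *Timp2*, *Mmp2*, *Timp3*, *Mmp14*, *Timp4*, *Timp1*, *Mmp13*, *Mmp19*, *Mmp3* and *Mmp9*. In this order the values of neighbors did not overlap between *Mmp2* and *Timp3* or between *Timp3* and *Mmp14*, and overlapped for all other neighbors. With *Uba1* siRNAs *Mmp13* stood between *Timp3* and *Mmp14*, and overlapped both. The other 9 genes kept their order. In that group neighbors without overlap were *Mmp2* and *Timp3*, and *Timp1* and *Mmp19*.

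Summed over the 6 MMPs there were 109, 74.3, 117 and 64.2 TPM in NT replicates 1 to 4 and 131, 139, 161 and 141 TPM in *Uba1* replicates 1 to 4. Since this sum holds *Mmp13*, it is given without a test. *Mmp13* made up 7.81%, 1.89%, 5.01% and 6.42% of it in the NT muscles and 6.97%, 43.1%, 12.1% and 41.0% in the *Uba1* muscles. *Mmp2* made up 70.3% to 74.1% in the NT muscles, and 71.3%, 44.7%, 69.2% and 48.0% in *Uba1* replicates 1 to 4. The 4 inhibitors summed to 128 ± 14.8 TPM in the NT muscles and 147 ± 17.4 TPM in the *Uba1* muscles (SD, n = 4 each), and the sum was higher in the *Uba1* leg of 4 of 4 mice. The ratio of the MMP sum to the TIMP sum was 0.705 ± 0.136 in the NT muscles and 0.979 ± 0.0838 in the *Uba1* muscles (SD, n = 4 each). Without *Mmp13* it was 0.667 ± 0.125 and 0.721 ± 0.161, and higher in 3 of 4 mice. In mouse pairs 2 and 4 the ratio without *Mmp13* went from 0.651 to 0.627 and from 0.497 to 0.542, against 0.663 to 1.10 and 0.531 to 0.919 with it. In pair 1 it went from 0.764 to 0.866 without *Mmp13* and from 0.828 to 0.931 with it, and in pair 3 from 0.758 to 0.848 and from 0.798 to 0.965. Leaving out *Mmp13* thus changed the difference between legs in pairs 2 and 4 most, and hardly in pair 1.

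**Figure D3:**
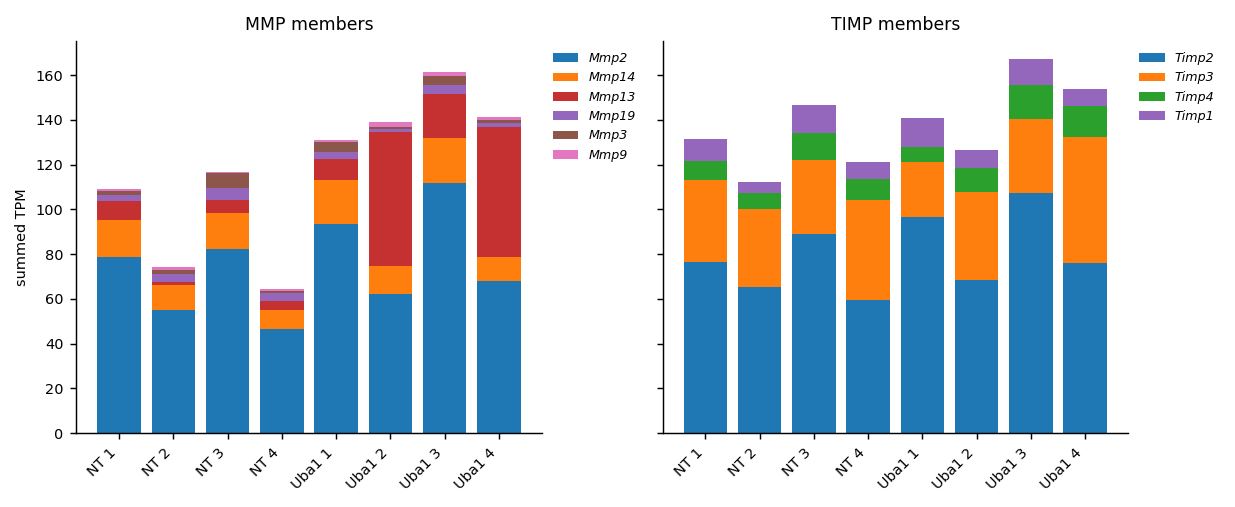
Summed TPM of the 6 MMPs (left) and the 4 TIMPs (right) in each muscle, stacked by gene from 0. *Mmp2* is the largest MMP segment in all 8 muscles, and the *Mmp13* segment reaches 43.1% and 41.0% of the MMP sum in *Uba1* replicates 2 and 4.

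The members fell into different patterns across the 8 muscles, which come from 4 mice and share the scaling of each library. As a description, Pearson's r of log2(TPM + 1) over the 8 muscles was 0.98 between *Mmp2* and *Timp2*, 0.96 between *Mmp2* and *Mmp14* and 0.92 between *Mmp14* and *Timp2*. *Mmp13* did not share that pattern, with r of 0.25 to *Mmp2* and 0.20 to *Timp2*, but 0.65 to *Mmp9* and -0.70 to *Mmp19*. The summed TPM of 8 fibroblast markers had r of 0.96 with *Mmp2*, 0.98 with *Timp2* and 0.91 with *Mmp14*, and of 0.050 with *Mmp13*. That sum was 866 to 1475 TPM with NT siRNAs and 940 to 1743 TPM with *Uba1* siRNAs. The sum of 8 macrophage markers had r of 0.95 with *Mmp3*, 0.84 with *Timp2*, 0.82 with *Mmp19* and 0.78 with both *Mmp2* and *Mmp14*. It was 145 to 462 TPM with NT and 135 to 480 TPM with *Uba1* siRNAs. *Mmp3* also had r of 0.88 with the fibroblast sum. The sum of the myofiber markers had r of 0.91 with *Mmp19*, and of -0.70 with both *Mmp13* and *Mmp9*. *Mmp9* had r of 0.75 with the neutrophil sum and 0.70 with the sum of the bone and cartilage markers. *Mmp13* had r of 0.92 with the latter, and of 0.80 when *Ibsp*, one of the genes most like *Mmp13*, was left out of it after the values were seen. The part of these cell types in the members' values was not tested.

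Among all genes tested, the 5 whose values were most like those of *Mmp13* over the 8 muscles included *Zbtb12*, *Col12a1*, *Ibsp* and *Ccn5*, with r of 0.97 and rank correlations of 0.81 to 0.95. Pearson's r takes no account of the size of a change. *Zbtb12* was at 5.34 to 5.87 TPM with NT and at 5.77 to 6.45 TPM with *Uba1* siRNAs, a far smaller spread than that of *Mmp13*. *Col12a1*, a collagen that binds to fibrils, was at 6.66, 1.28, 2.55 and 3.36 TPM in NT replicates 1 to 4 and at 4.17, 16.5, 7.28 and 16.8 TPM in *Uba1* replicates 1 to 4. As with *Mmp13*, *Uba1* replicates 2 and 4 were the highest and NT replicate 2 the lowest. *Col12a1* was picked for its likeness to *Mmp13*, and *Mmp13* for its rise, so this shared order follows from the choice. For *Timp1* the 5 most alike were *Nifk*, *Armcx4*, *Zfp280b*, *Dynlt1c* and *Gtpbp8*, with r of 0.95 to 0.97.

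*Ibsp* encodes bone sialoprotein and is among the 10 bone and cartilage markers examined. It was at 2.45, 0.468, 2.91 and 2.30 TPM with NT siRNAs and at 1.93, 19.8, 6.72 and 23.0 TPM with *Uba1* siRNAs. The muscles with high *Ibsp* were those with high *Mmp13*, and *Uba1* replicate 1 was within the NT range for *Ibsp*. The 10 markers summed to 18.6, 14.0, 12.5 and 13.9 TPM in NT replicates 1 to 4 and to 14.8, 41.7, 20.9 and 45.2 TPM in *Uba1* replicates 1 to 4. *Ibsp* alone was 19.8 of the 41.7 TPM and 23.0 of the 45.2 TPM in *Uba1* replicates 2 and 4. Of these markers 4 were tested and 0 passed the adjusted p (limma). *Alpl*, among those tested, was the largest part of the sum in every NT muscle, at 12.1, 9.21, 5.95 and 7.55 TPM. With *Uba1* siRNAs it was at 8.77, 14.2, 8.94 and 14.0 TPM, higher in 3 of 4 mice (log2FC 0.37, limma, adjusted p = 0.373). *Dmp1*, *Phex* and *Acan* were below 1 TPM in every muscle, and their groups overlapped. At an unadjusted P under 0.05, *Ibsp* (log2FC 1.86, limma, adjusted p = 0.197) and *Bglap*, the osteocalcin gene (log2FC 1.22, limma, adjusted p = 0.174), were higher, against 16.0% of all genes. Nothing is read from this count. *Ibsp* is one of the genes picked for values like those of *Mmp13*, and *Bglap* had 3 *Uba1* muscles and 1 NT muscle at 1 TPM or more, so *Bglap* entered the test through the group with the higher values. *Sox9*, a cartilage transcription factor, was lower at that level (log2FC -0.60, limma, adjusted p = 0.182), against 1.98% of all genes. *Bglap* has near-identical neighbors, so its TPM are uncertain. The cartilage collagens *Col2a1* and *Col10a1* were at 0.308 TPM or less in every muscle. *Sp7*, a transcription factor of osteoblasts, was below the filter at 0.101 to 0.355 TPM with NT siRNAs and at 0.678 to 0.979 TPM with *Uba1* siRNAs, without overlap (exact permutation test on unpaired muscles, p = 0.0286, two-sided, the smallest possible), as were 10.6% of the genes tested. *Alpl*, *Bglap*, *Sox9*, *Sp7*, *Dmp1*, *Phex*, *Acan* and the cartilage collagens were named after their values were seen. The part of bone cells in the *Mmp13* values was not tested.

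**Figure D4:**
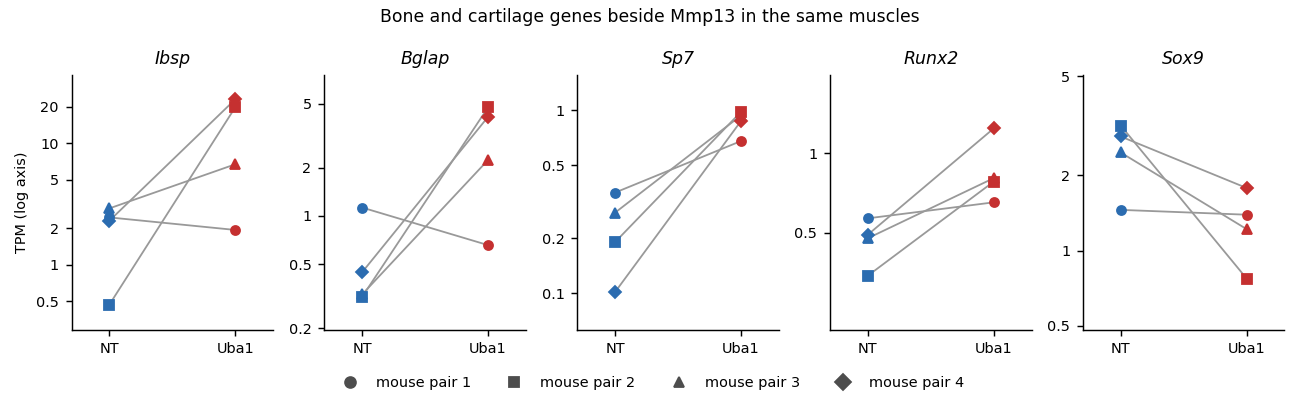
TPM on log axes of *Ibsp*, *Bglap*, *Sp7*, *Runx2* and *Sox9* in the muscles with NT siRNAs (blue) and *Uba1* siRNAs (red), with a line joining the legs of each mouse. *Ibsp* reaches 19.8 and 23.0 TPM in *Uba1* replicates 2 and 4, the muscles in which *Mmp13* is at 59.9 and 58.1 TPM.

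*Mmp13* lies at the end of a cluster of 10 MMP genes that spans 427 kb of chromosome 9. Only *Mmp13* and *Mmp3* passed the filter on low values. *Mmp1a*, *Mmp1b*, *Mmp7* and *Mmp20* were listed at 0 in all 8 muscles. *Mmp12*, the macrophage elastase, is the nearest of the cluster and was at 0.0286 to 2.28 TPM with NT and 0.0546 to 1.52 TPM with *Uba1* siRNAs (exact permutation test, p = 0.686, two-sided). *Mmp8*, the neutrophil collagenase, was at 0.131 to 0.320 and 0.140 to 0.712 TPM (exact permutation test, p = 0.314, two-sided). *Mmp10* was listed at 0 except for 0.197 TPM in *Uba1* replicate 1, and *Mmp27* stayed at 0.594 TPM or less. In none of the other genes of the cluster were *Uba1* replicates 2 and 4 both the highest muscles.

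**Figure D5:**
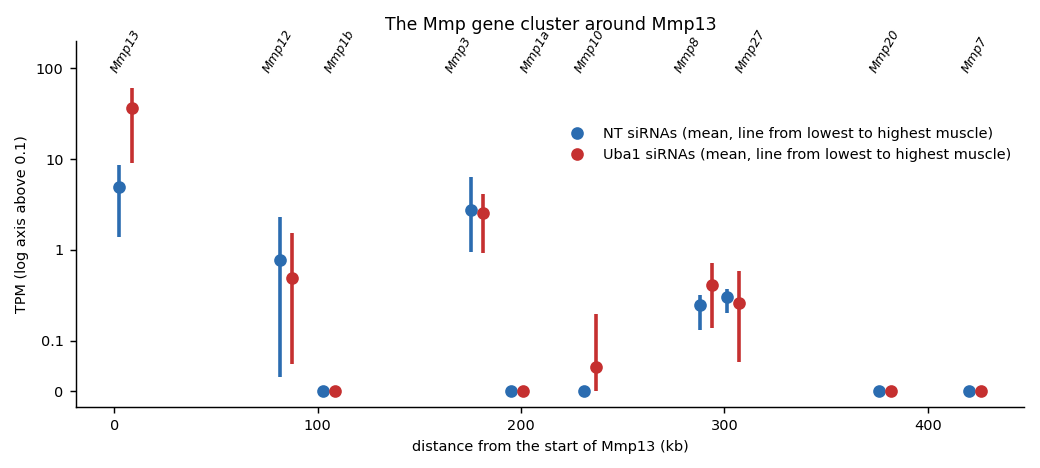
Mean TPM of the 10 MMP genes of the cluster (points, with lines from the lowest to the highest of 4 muscles, blue for NT and red for *Uba1* siRNAs) against distance from the start of *Mmp13* in kb, on an axis that is logarithmic above 0.1 TPM. *Mmp13* stands at 4.97 and 36.7 TPM, *Mmp3* at 2.78 and 2.54 TPM, and 4 genes lie at 0.

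Of the 17 other MMP genes, those of the cluster included, 4 were tested and 0 passed the adjusted p (limma), with 1 higher at an unadjusted P under 0.05, against 16.0% of all genes. That was *Mmp23*, at 3.01, 1.85, 2.63 and 1.33 TPM with NT siRNAs and 3.76, 2.54, 4.02 and 2.78 TPM with *Uba1* siRNAs (log2FC 0.43, limma, adjusted p = 0.261). *Mmp15*, a membrane-bound MMP, was at 11.5 ± 2.28 and 13.6 ± 3.85 TPM (SD, n = 4 each) with a log2FC of 0.20 (limma, adjusted p = 0.597). *Mmp11*, stromelysin 3, differed by a log2FC of 0.30 (limma, adjusted p = 0.392). *Mmp17* was below the filter, at 0.198 to 0.460 and 0.268 to 0.410 TPM. All 4 tested genes, *Mmp28* among them, were higher in the *Uba1* leg of every mouse, against 32.2% of all genes tested.

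The genes that activate or restrain MMPs were also examined, 14 in all, of which 10 were tested and 0 passed the adjusted p (limma). Furin cuts the precursor of MT1-MMP, and *Furin* had a log2FC of 0.07 (limma, adjusted p = 0.682), which turned negative with median-ratio scaling (-0.041). The plasminogen activators *Plat* and *Plau* had log2FC of -0.012 and -0.15 (limma, adjusted p = 0.978 and 0.681). *Plaur*, the receptor of urokinase, was lower without overlap (log2FC -0.71, limma, adjusted p = 0.0789), and *Serpine2*, which encodes an inhibitor of serine proteases such as urokinase, was higher without overlap (log2FC 0.28, limma, adjusted p = 0.156). Of all genes 1.01% were lower and 10.6% higher without overlap. *Plaur* and *Serpine2* were named after their values were seen. *Reck*, a membrane-anchored MMP inhibitor, had a log2FC of 0.23 (limma, adjusted p = 0.270). *Bsg*, whose product basigin induces MMPs, was at 482 to 531 TPM with NT and 420 to 580 TPM with *Uba1* siRNAs, and the clearance receptor gene *Lrp1* had a log2FC of 0.18 (limma, adjusted p = 0.578).

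Of the fibrillar collagens, the substrates of MMP13 and MT1-MMP, 5 of 6 genes were tested and 0 passed the adjusted p (limma). At an unadjusted P under 0.05, 1 of the 5, *Col1a2*, was higher, against 16.0% of all genes. *Col1a1* was at 269, 148, 328 and 134 TPM with NT siRNAs and at 358, 220, 401 and 269 TPM with *Uba1* siRNAs, higher in every mouse with overlapping groups (log2FC 0.57, limma, adjusted p = 0.340). *Col3a1* had a log2FC of 0.26 (limma, adjusted p = 0.691). Of 15 other substrates 14 were tested and 0 passed, with 1, *Spp1* (osteopontin), higher at an unadjusted P under 0.05, again against 16.0%. The basement membrane collagen *Col4a1* had a log2FC of -0.041 (limma, adjusted p = 0.937) and fibronectin, *Fn1*, of 0.19 (limma, adjusted p = 0.770).

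Of 20 genes for transcription factors and cytokines known to act on MMP genes, 16 were tested and 0 passed the adjusted p (limma). At an unadjusted P under 0.05, 5 were lower (*Fosl2*, *Jund*, *Rela*, *Tnf* and *Il6*), against 1.98% of all genes, and 0 were higher. Without overlap 3 of the 16 (*Fosl2*, *Rela* and *Il6*) were lower, against 1.01%. Over the alternatives described below, the lowest adjusted p was 0.0104 for *Fosl2* and 0.0489 for *Rela* (limma), so each passed under some. *Jund*, *Tnf* and *Il6* passed under none. The list was written with earlier results from these muscles known, so its counts are no independent evidence of a direction. The median log2FC of the 16 was -0.34, or -0.45 with median-ratio scaling. *Fos* had a log2FC of -0.43 (limma, adjusted p = 0.481) and was lower in 3 of 4 mice. *Il1b*, an inducer of *Mmp3* and *Mmp13* in other cells, was lower in all 4 mice (log2FC -0.37, limma, adjusted p = 0.371). Its leg ratios were 0.939, 0.509, 0.649 and 0.986, so the legs were close in replicates 1 and 4. *Ets1* had a log2FC of 0.12 (limma, adjusted p = 0.557) and *Tgfb1* of -0.056 (limma, adjusted p = 0.848). *Runx2*, which activates *Mmp13* in bone cells, was below the filter, as were *Fosl1*, *Il1a* and *Osm*. *Runx2* was at 0.567, 0.343, 0.476 and 0.491 TPM with NT siRNAs and at 0.652, 0.782, 0.805 and 1.24 TPM with *Uba1* siRNAs. The groups did not overlap (ratio of means 1.85, exact permutation test on unpaired muscles, p = 0.0286, two-sided, the smallest possible), as for 10.6% of the genes tested. *Fosl1*, which encodes a partner of Jun proteins in AP-1 and was named after its values were seen, was at 0.842, 3.14, 2.37 and 2.17 TPM with NT siRNAs and at 0.267, 0.0629, 0.136 and 0.0971 TPM with *Uba1* siRNAs. It was lower in the *Uba1* leg of every mouse, without overlap. *Il1a* and *Osm* were below 1 TPM in every muscle, and their groups overlapped.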

How the data were processed

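Total RNA of 8 TA muscles was sequenced (TruSeq RNA Sample Prep v2, NovaSeq). Trimmed reads were aligned to GRCm39 in CLC Genomics Workbench by the authors, who deposited TPM for 41709 genes. How overlapping genes and strand were handled is not given in the sources used here. The TPM of each muscle sum to the same total, so no counting interval can be given and the number of muscles limits the precision.

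A gene was kept if 4 or more of the 8 muscles had at least 1 TPM (11530 genes). The test was limma 3.58.1 (lmFit, eBayes with a trend, two-sided) in R 4.3.3 on log2(TPM + 1) over all 8 muscles without covariates, with Benjamini-Hochberg adjustment over all genes tested. It was tested on simulated data. Changes of low genes come out too small on this scale. Genes without a fit were compared by exact permutation tests of log2(TPM + 1). The alternatives were 3 other scalings (median-ratio, quantile, and TPM without the mitochondrial genome), pseudocount 0.1, no filter, a filter at a mean of 5 TPM, the mouse as a replicate block, this block after median-ratio scaling, the Kruskal-Wallis test named in the study's methods, and each muscle left out. Replicate numbers mark the legs of 1 mouse in the labels. The deviations of the legs from their group means correlated across genes with -0.00037, 0.20, 0.58 and 0.54 for replicates 1 to 4.

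The members, gene lists and motifs were chosen with earlier results of these data known. Named were all members, genes of the other lists past the adjusted p, 21 genes of those lists picked by role, and the 5 genes most like *Mmp13* and *Timp1*. Some genes that this rule names are not reported here. Positions come from GENCODE M39 (GRCm39).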

Additional observations from a re-analysis of the deposited data

How the results depend on the processing

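For each change given here, the cause was not tested. The genes past the adjusted p numbered 3 in the main test and 13 when mitochondrial genes were left out of the TPM, 23 after median-ratio scaling, 28 after quantile normalization, 11 under the stricter filter, 57 with the replicate block (the legs paired by mouse) and 76 with the block and median-ratio scaling. Kruskal-Wallis gave 0, while 2210 genes had an unadjusted P under 0.05, and with 4 muscles a group its smallest P cannot pass the adjustment here, so it is no test of stability. With each muscle left out the count went from 2 to 39, the latter without *Uba1* replicate 4. It was 6 without NT replicate 1, and 5 without NT replicate 3 or *Uba1* replicate 2. Of the 9 tested members, 0 passed under the other alternatives, and the block changed no member's call. The block and the filters leave a log2FC as it was. Under the other alternatives 6 log2FC of members reversed, those of *Mmp3* and *Timp3*. *Mmp3* went from -0.28 to 0.36 over the alternatives, and was 0.36 without NT replicate 3, 0.23 without *Uba1* replicate 2 and 0.13 without *Uba1* replicate 4. With 1 muscle left out *Timp1* fell from 0.23 to 0.0034 (NT replicate 2) and *Mmp14* from 0.26 to 0.089 (NT replicate 4). In the same way *Mmp2* ranged from 0.20 to 0.48, *Mmp9* from 0.29 to 0.55 and *Mmp19* from -0.61 to -0.21. *Timp2* ranged from 0.15 to 0.36 and *Timp4* from 0.15 to 0.49. *Timp3* went from -0.23 to 0.16, and was 0.064 without NT replicate 4, 0.16 without *Uba1* replicate 1 and 0.026 without *Uba1* replicate 3. The ratio of the MMP sum to the TIMP sum without *Mmp2* was 0.197 with NT and 0.413 with *Uba1* siRNAs, and without *Mmp13* it was 0.721 with *Uba1* siRNAs. The stricter filter, a mean of 5 TPM, leaves out *Mmp3*, *Mmp9* and *Mmp19*. No member was under the filter on low values, so the planned exact test for such members gave no value.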
